A study of Mus musculus with 2 samples.

Results

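The genes described are 7 secreted or membrane-bound growth factors for myeloid cells and blood progenitors: Csf1, Il34, Csf2, Csf3, Kitl, Flt3l and Cx3cl1. They were chosen by symbol, and each was measured by 1 probe set that the platform annotation ties to that gene alone, so all 7 of 7 were found among 19751 named genes. The cells were fibroblastic reticular cells (FRCs), lymph node fibroblasts that form the scaffold on which lymphocytes move, from untreated C57BL6/J mice 4 to 6 weeks old. All stromal cells of the node were cultured over 7 to 10 days, in αMEM that contained 10% fetal calf serum, and the source label calls the expanded FRCs purified, by a step that the labels do not describe. There was 1 group of 2 arrays, named replicate 1 and replicate 2 in the sample titles, with no second condition. Nothing in the labels says whether the replicates came from separate mice or cultures, and their spread may be technical.

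Csf1 and Il34 are both ligands of the receptor Csf1r, through which macrophages and monocytes survive and divide. Csf2 and Csf3 encode the granulocyte-macrophage and granulocyte colony stimulating factors, which many fibroblasts make only after stimuli such as interleukin-1, and whose transcripts are short-lived. Kitl (stem cell factor) signals through Kit on progenitors and mast cells, Flt3l through Flt3 on dendritic cell precursors, and Cx3cl1 (fractalkine) through Cx3cr1 on monocytes and other leukocytes. Csf1, Kitl, Flt3l and Cx3cl1 are made as membrane proteins that can be shed by proteases, so an RNA level does not show which form is present.

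Promoter sequence was available from RefSeq (build GRCm38.p6) for 5 of the 7 genes, Csf1, Kitl, Cx3cl1, Flt3l and Csf2. The 160 bases before the start are printed for Csf1, Kitl and Cx3cl1, the 3 genes whose signal exceeded every background probe set described further on, to show which common promoter letters they carry. Capitals mark matches on either strand to 4 motifs, in which N is any base. The first is TATAAA, which binds the TATA-binding protein near many starts. The second is GGGACTT, the opening letters of a longer site bound by NF-κB. The others are TGANTCA, which AP-1 proteins bind, and the GC box GGGCGG, bound by Sp proteins. Overlapping matches run together. The Csf1 stretch is chr3:107760470-107760629 on the minus strand, the Kitl stretch chr10:100015661-100015820 on the plus strand, and the Cx3cl1 stretch chr8:94772020-94772179 on the plus strand. Each runs 5′ to 3′ in the direction of the gene.
Csf1: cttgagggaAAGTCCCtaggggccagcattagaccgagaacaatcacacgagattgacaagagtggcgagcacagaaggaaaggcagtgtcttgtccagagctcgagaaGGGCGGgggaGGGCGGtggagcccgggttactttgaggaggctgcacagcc
Kitl: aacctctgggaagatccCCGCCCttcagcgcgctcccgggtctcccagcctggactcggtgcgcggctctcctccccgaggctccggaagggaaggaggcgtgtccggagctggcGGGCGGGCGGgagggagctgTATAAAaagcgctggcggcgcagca
Cx3cl1: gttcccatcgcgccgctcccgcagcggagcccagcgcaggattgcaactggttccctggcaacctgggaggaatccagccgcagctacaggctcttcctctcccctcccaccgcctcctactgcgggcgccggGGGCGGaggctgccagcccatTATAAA

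The Csf1 stretch held GGGACTT on the opposite strand, from base -151 to -145 before the start. Such a match was present in the 250 bases before the start of 1527 of 32851 RefSeq promoter windows (4.65%), and in none of the other 4 windows. Csf1 also held GC boxes starting at -51 and -41. Kitl had TATAAA at -25 to -20, and Cx3cl1 had it at -6 to -1, against a share of 12.4% of all windows with that match. In Kitl the GC boxes started at -143, -45 and -41, the last 2 of them overlapping, and in Cx3cl1 the GC box started at -27. Flt3l and Csf2 had 1 GC box each in their 250 bases, and 32.7% of all windows held at least 1. None of the 5 windows matched TGANTCA, which 6.75% of all windows did. These are matches of letters only, chosen after the sequences had been seen, and binding was not measured.

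CpG content separated Csf2 from the other 4 windows. The ratio of observed to expected CpG over 250 bases was 0.106 for Csf2, against 0.519 for Csf1, 0.544 for Cx3cl1, 0.624 for Flt3l and 0.770 for Kitl, and the median of all windows was 0.374. The Csf2 window held 2 CpG dinucleotides and the Kitl window 23. Csf2 was also the one of these 5 genes whose signal did not pass the background limit introduced next, a description of 5 genes that was not tested.

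Levels are log2 intensities computed from the deposited RMA values, given as mean ± SD over n = 2 arrays. Signal without transcript was judged from 1035 probe sets of olfactory receptors, which stand in for genes that a fibroblast does not transcribe. The 95th percentile of these was the background limit of each array, 7.15 on replicate 1 and 7.17 on replicate 2. A stricter limit was taken the same way from 34 probe sets of genes known from single organs such as liver, retina or testis, and came to 8.09 and 8.18. To count as above a limit, a gene had to exceed it on replicate 1 and on replicate 2. Levels of different genes are not set against each other, since probes bind with different strength.

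Of the 7 growth factor genes, 5 exceeded the olfactory receptor limit and 4 also the stricter one. Among all named genes these shares were 67.3% and 49.8%, so the growth factors' shares of 71.4% and 57.1% were near those of genes at large. Csf1, Il34, Kitl and Cx3cl1 passed both limits, Flt3l passed the first only, and Csf3 and Csf2 passed neither.

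**Figure D1:**
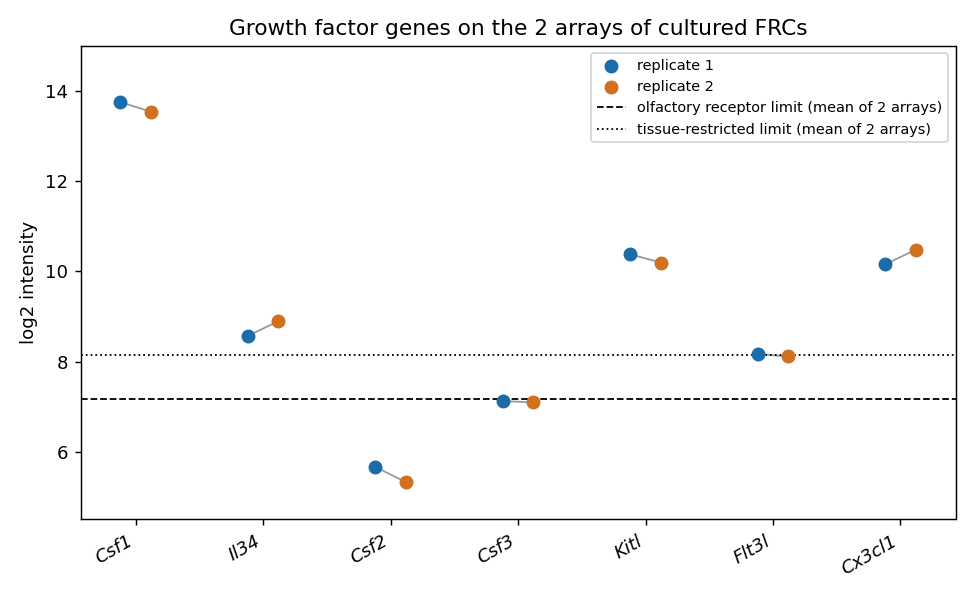
Log2 intensity (vertical axis) of the 7 growth factor genes, with a point for each array joined by a grey line, and dashed and dotted lines at the means over both arrays of the olfactory receptor limit and the tissue-restricted limit. Csf1, Kitl and Cx3cl1 lie well above both lines, Il34 lies above both, Flt3l lies on the upper line, Csf3 on the lower line and Csf2 below both.

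For Csf1, the macrophage colony stimulating factor, the log2 intensity was 13.76 on replicate 1 and 13.54 on replicate 2 (13.65 ± 0.15). On the linear scale these are intensities of 13825 and 11910, where the brightest probe set of the arrays gave 20232 and 20996. Csf1 thus stood 6.60 and 6.37 log2 units above the limit of its array. RefSeq lists 3 curated transcripts for the gene, and the single probe set does not tell them apart.

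Il34, the other ligand of Csf1r, had 8.57 on replicate 1 and 8.90 on replicate 2 (8.73 ± 0.23), or 380.2 and 476.4 as intensities. It was 1.42 and 1.72 log2 units above the olfactory receptor limit and 0.48 and 0.71 above the stricter one. Of the olfactory receptor probe sets, 99.5% and 99.8% lay lower on the 2 arrays, as did all 34 tissue-restricted probe sets on each. Both ligands of the receptor thus gave signal above both limits.

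Csf2 had levels of 5.66 and 5.33 (5.49 ± 0.24), so that level minus limit was -1.49 and -1.85. Its signal was above 60.9% and 47.9% of the olfactory receptor probe sets, close to the middle of the background on both arrays. Csf3 had 7.12 and 7.10 (7.11 ± 0.02), with level minus limit at -0.03 and -0.08, and exceeded 94.6% and 94.3% of those probe sets. Its call is thus decided by where the limit is set: it was above at the 90th percentile and below at the 95th. Neither value shows that the transcript was absent, only that it was not detectable above this background.

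**Figure D2:**
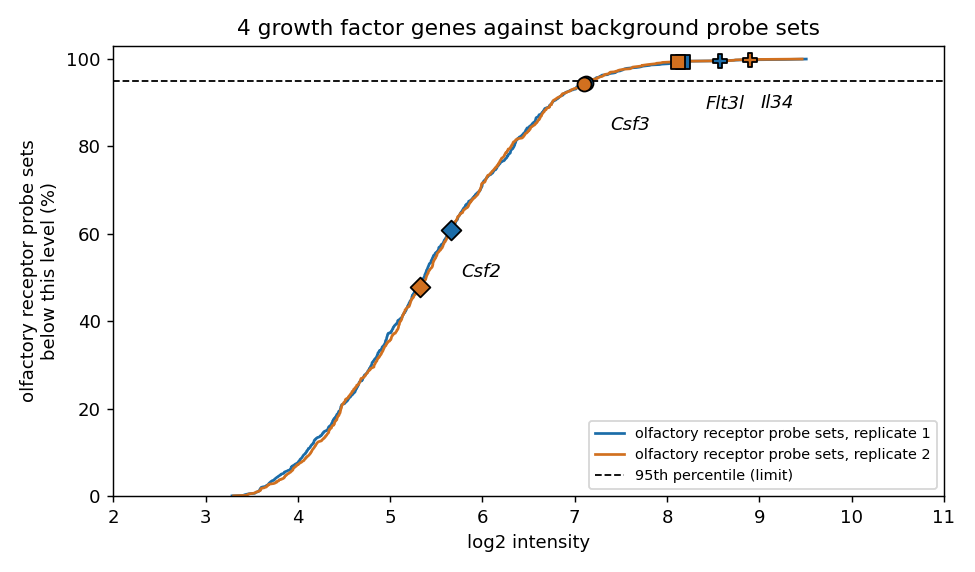
Percent of the 1035 olfactory receptor probe sets (vertical axis) that lie below a given log2 intensity (horizontal axis) on each array, with markers for Csf2, Csf3, Flt3l and Il34 at their levels on replicate 1 (blue) and replicate 2 (orange). Csf2 sits at 60.9% and 47.9%, Csf3 just under the dashed line at the 95th percentile, and Flt3l and Il34 above 99%.

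Kitl, the ligand of Kit, gave 10.38 on replicate 1 and 10.20 on replicate 2 (10.29 ± 0.13). All 1035 olfactory receptor probe sets and all 34 tissue-restricted ones were lower on both arrays, and the gene was 3.23 and 3.02 log2 units above the first limit. RefSeq lists 2 curated Kitl transcripts. The soluble and membrane-retained forms of the protein come from splicing of this gene and cannot be told apart with the 1 probe set.

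Flt3l, the dendritic cell growth factor, had 8.17 and 8.11 (8.14 ± 0.04). These values were 1.02 and 0.94 above the olfactory receptor limit. Against the stricter limit level minus limit was 0.08 on replicate 1 and -0.07 on replicate 2, so the gene straddled that line. Of the 34 tissue-restricted probe sets, 33 were lower on replicate 1 and 31 on replicate 2.

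Cx3cl1, which encodes the membrane-anchored chemokine fractalkine, had 10.16 on replicate 1 and 10.48 on replicate 2 (10.32 ± 0.23). It stood 3.01 and 3.31 above the limit, and no background probe set of either kind reached it.

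As log2 differences of replicate 1 minus replicate 2, the values were 0.22 for Csf1, 0.18 for Kitl and 0.05 for Flt3l, with replicate 1 higher, and -0.33 for Il34 and -0.32 for Cx3cl1, with replicate 2 higher. These correspond to 1.16-fold, 1.14-fold, 1.04-fold, 1.25-fold and 1.25-fold. Csf2 (0.34) and Csf3 (0.03), both below background, were also higher on replicate 1. The median absolute difference over the 13577 genes with a mean level above the mean limit was 0.11, and 4 of the 5 growth factor genes above background exceeded it. None of the 5 genes above background was 1.5-fold apart, while 648 of the 13577 genes were (4.77%), a share at which 0 of 5 is no result about these genes. Their median signed difference, in which opposite directions cancel, was 0.05, against -0.0046 over those 13577 genes. A difference as large as that of Il34 in either direction was seen in 13.3% of the 13577 genes, and as large as that of Csf1 in 24.6%. The 2 ligands of Csf1r thus differed in opposite directions, each by less than 1.5-fold. With 1 array on each side these differences have no replicate check, and no test was made.

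**Figure D3:**
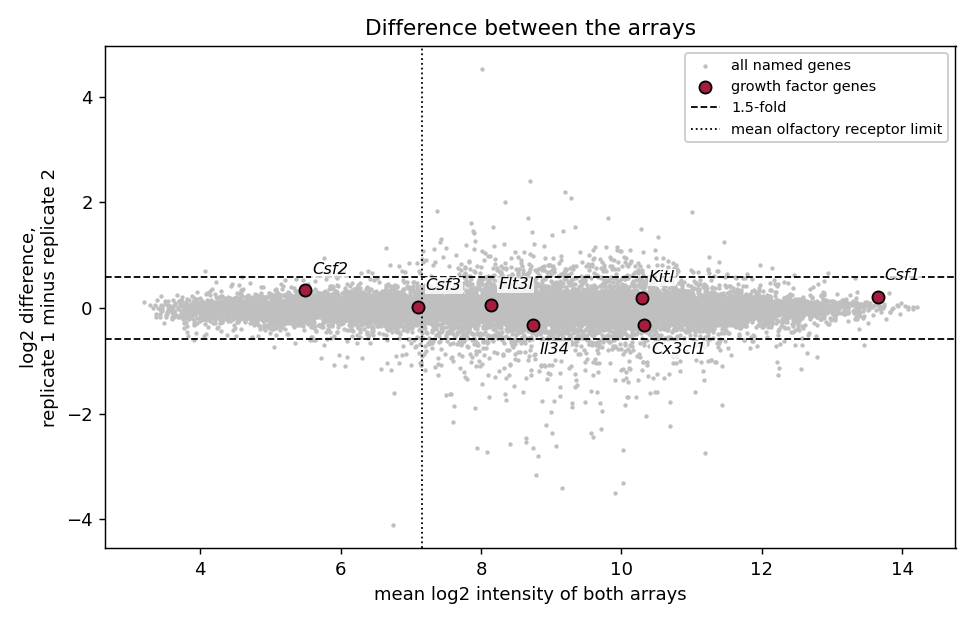
Log2 difference of replicate 1 minus replicate 2 (vertical axis) against the mean log2 intensity of both arrays (horizontal axis), with grey points for all 19751 named genes and red points for the 7 growth factor genes. All 7 lie between the dashed lines at 1.5-fold, and Csf2 and Csf3 lie left of the dotted line at the mean olfactory receptor limit.

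Receptors for these factors were looked at next, since several are carried by the leukocytes that respond and could bear on whether such cells were in the culture. Sdc1 and Ptprz1 are in the list as proteins that bind Il34, and their signal was not read as a sign of leukocytes. Of 10 receptor genes, 8 exceeded the olfactory receptor limit (80%) and 2 the stricter limit (20%), against 67.3% and 49.8% of all named genes. Those 2 were Csf2ra, the ligand-binding chain of the Csf2 receptor, at 9.63 on replicate 1 and 9.55 on replicate 2, and the proteoglycan Sdc1, which can bind Il34, at 11.14 and 11.90. Csf2rb, the signalling chain that pairs with Csf2ra, was at 7.09 and 7.06, below the limit on both arrays. Its mouse paralogue Csf2rb2, which serves the interleukin-3 receptor, was at 7.19 and 7.37. The sequences of Csf2rb and Csf2rb2 are closely related, so probes for them may share signal.

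Csf1r, the receptor of Csf1 and Il34 on macrophages, was at 7.66 and 7.54, above the first limit and below the second. Kit (7.20 and 7.24) and Flt3 (7.24 and 7.22) lay within 0.1 of the olfactory receptor limit on both arrays. Cx3cr1 was at 8.22 and 8.13, above the stricter limit on replicate 1 and below it on replicate 2, and Csf3r at 6.78 and 6.73 was below both limits. Ptprz1, a receptor phosphatase that also binds Il34, was at 8.04 on replicate 1 and 8.92 on replicate 2. Ptprz1 and Sdc1 were the receptor genes at least 1.5-fold apart, being 1.84-fold and 1.69-fold higher on replicate 2, as were 2.87% of the 13577 genes by at least 1.5-fold.

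**Figure D4:**
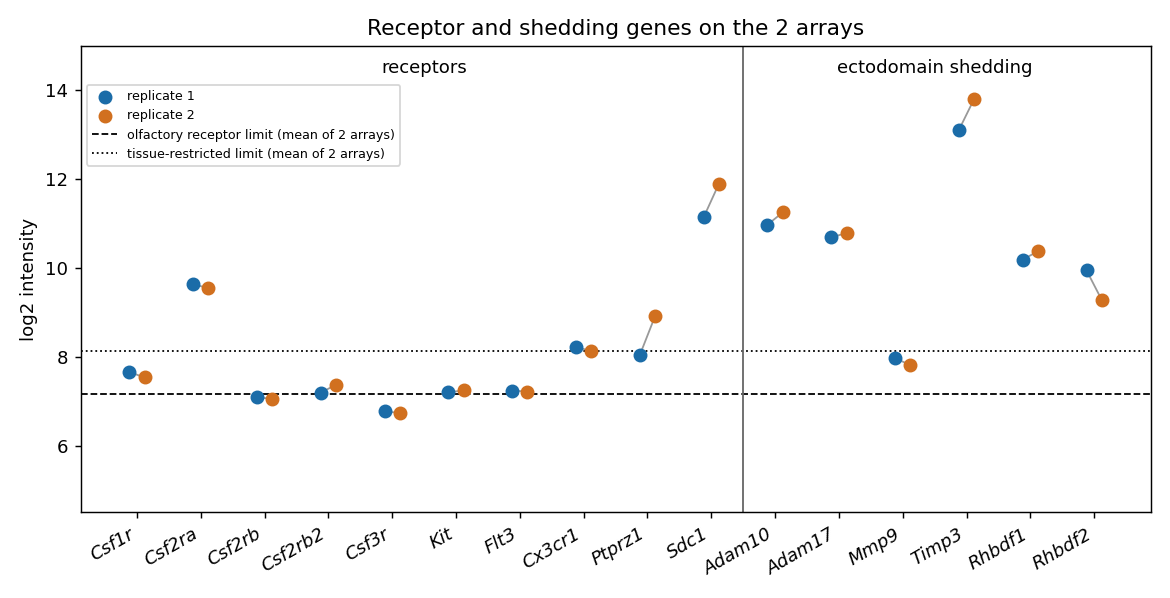
Log2 intensity (vertical axis) of 10 receptor genes and 6 genes of ectodomain shedding on replicate 1 (blue) and replicate 2 (orange), with the means over both arrays of the olfactory receptor limit (dashed) and tissue-restricted limit (dotted). Csf2ra and Sdc1 are the receptor genes above the dotted line on both arrays, and of the shedding genes all but Mmp9 are.

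All 6 genes of shedding passed the first limit and 5 the stricter one (83.3%), against 67.3% and 49.8% of all named genes. The proteases Adam10 and Adam17, which release Cx3cl1 and other membrane-bound factors, were at 10.98 and 11.25 and at 10.69 and 10.79 on replicates 1 and 2. Rhbdf1 (10.19 and 10.38) and Rhbdf2 (9.95 and 9.28), which encode the iRhoms that carry Adam17 to the cell surface, also passed both. Timp3, an inhibitor of Adam17, was at 13.11 and 13.81. Mmp9, which can release Kitl, was at 7.97 and 7.81 and passed only the first limit. Timp3 was 1.63-fold higher on replicate 2 and Rhbdf2 1.59-fold higher on replicate 1, with the other 4 genes less than 1.5-fold apart. A difference of at least 1.5-fold was present in 4.77% of the 13577 genes.

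The signals known to induce Csf2 and Csf3 in fibroblasts were then described. Of 15 measured genes of the interleukin-1, tumour necrosis factor, interleukin-17 and NF-κB pathways, 12 exceeded the first limit and 11 the second. These shares of 80% and 73.3% stood beside 67.3% and 49.8% of all named genes. Among the genes above both limits were the receptor genes Tnfrsf1a (11.39 ± 0.16), Il17ra (10.14 ± 0.23) and Il1rap (10.02 ± 0.12). Il1r1 and Nfkb1 had no probe set of their own and were not analysed here. Among the ligands, Il1b (6.40 ± 0.01) and Tnf (6.55 ± 0.04) were below the limit on both arrays. Il1a had 10.27 on replicate 1 and 5.74 on replicate 2, above the limit on the first array only and at least 8.58-fold higher there when replicate 2 is set to its limit. Csf2 and Csf3 were below the limit on the array with Il1a above background as well as on the other. A response to Il1a was not tested, and signal within background could not show one. Nfkbiz, an NF-κB cofactor gene, was also at least 1.5-fold apart, 1.58-fold higher on replicate 1 (9.62 and 8.96), and the other genes above the limit were not. That far apart were 4.77% of the 13577 genes. Cebpd (8.09 and 7.72) was the gene that passed the first limit and not the second.

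All 8 genes of the proteins that bind and either destroy or protect unstable cytokine transcripts passed both limits, including Zfp36 (10.28 ± 0.08), the protein of which destabilises Csf2 RNA. Among all named genes, 67.3% passed the first limit and 49.8% the second. Zc3h12a, an RNase of inflammatory transcripts, was 1.55-fold higher on replicate 1 (9.57 and 8.94), and the other 7 were less than 1.5-fold apart. Over the 13577 genes, 4.77% were at least 1.5-fold apart.

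Other cytokines that act on blood cells formed a mixed list. Against 67.3% and 49.8% of all named genes, 8 of 14 measured genes exceeded the first limit and 5 the second. The 5 were Il6 (12.08 and 10.83), Lif (10.66 and 9.57), Il11 (9.28 and 9.31), Cxcl12 (9.96 and 9.63) and Tnfsf11 (9.15 and 9.34), of which Il6, Lif and Il11 encode cytokines of the interleukin-6 family. Il7, the lymphocyte survival factor, had 8.66 and 7.74. Il3 (5.09 and 5.16) and Il5 (6.16 and 5.96), which share a receptor chain with Csf2, were below the limit, as was Csf2 itself. Of the 8 genes above the first limit, 4 were at least 1.5-fold higher on replicate 1. They were Il6 at 2.38-fold, Lif at 2.13-fold, Il7 at 1.89-fold and Il33 at 1.58-fold, while Il11 was 1.02-fold apart, against 1.91% of all 13577 genes that far higher on that array. With 1 array on each side, these differences were not tested.

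**Figure D5:**
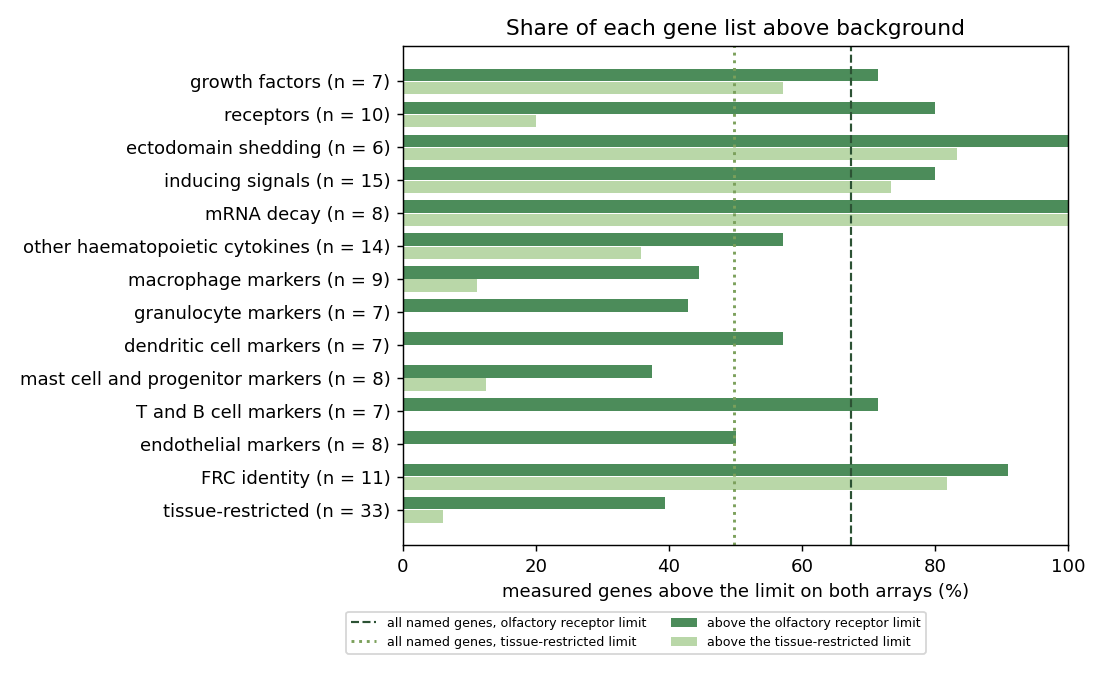
Percent of the measured genes of each list (horizontal axis, n in the labels) above the olfactory receptor limit (dark bars) and the tissue-restricted limit (light bars) on both arrays, with lines at 67.3% and 49.8% for all named genes. The growth factors' bars end close to those lines, the shedding and decay lists reach 100% at the first limit, and granulocyte, dendritic, lymphocyte and endothelial markers have no light bar.

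The label of the cells was set against marker genes, because leukocytes or endothelium in the culture would add their own factors and receptors. Of 11 FRC genes, 10 passed the first limit and 9 the stricter one, with the sorting marker Pdpn at 12.67 ± 0.10, and the B cell chemokine Cxcl13 (5.93 ± 0.04) below. Among 9 macrophage markers, 4 passed the first limit (44.4%) and 1, Cd68 (9.03 ± 0.09), the second (11.1%), beside the same shares of all named genes. The other 3 were Csf1r, Fcer1g (7.19 ± 0.02) and Cd14 (7.87 ± 0.22). Fcer1g passed by only 0.05 on replicate 1 and 0.005 on replicate 2. Tyrobp (7.16 and 7.03) was above the first limit on replicate 1 only. The pan-leukocyte gene Ptprc (6.44 ± 0.04), Itgam (6.25 ± 0.07) and Adgre1 (6.13 ± 0.04) were below the first limit on both arrays. Summed over the 9 genes, the intensities were 1664 on replicate 1 and 1752 on replicate 2, with single levels from 6.10 to 9.09 and from 6.16 to 8.96. Lyz2 was below the limit on replicate 1 and above it on replicate 2 (7.12 and 8.43), and without it the sums were 1524 and 1408, so the order of the replicates turned. Such sums weight genes by how strongly their probes bind and include signal below the limit. They are therefore not a measure of macrophage content.

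Granulocyte, dendritic cell, lymphocyte and endothelial markers passed the first limit in 3 of 7, 4 of 7, 5 of 7 and 4 of 8 cases, and the second limit in 0 cases each. Over all named genes these shares were 67.3% and 49.8%. On replicate 1 alone, Zbtb46 (8.21) and Flt4 (8.41) exceeded the second limit, and on replicate 2 alone Emcn (8.40) did. Zbtb46 on replicate 2 was at 8.179, just under the limit of 8.183. The granulocyte genes above the first limit were Mpo (7.25 ± 0.05), Elane (7.42 ± 0.02) and Cebpe (7.37 ± 0.01). Of the dendritic cell genes, Flt3, Zbtb46 (8.19 ± 0.02), Batf3 (7.73 ± 0.003) and Ccr7 (7.82 ± 0.003) lay above it. Itgax (6.41 ± 0.06), Xcr1 (6.11 ± 0.11) and Clec9a (5.43 ± 0.04) lay below it. Lymphocyte genes above it were Cd3e (7.59 ± 0.02), Cd8a (7.48 ± 0.01), Zap70 (7.31 ± 0.004), Cd79b (7.36 ± 0.05) and Pax5 (7.45 ± 0.14). The lymphocyte genes below it were Cd4 (6.91 ± 0.01) and Ms4a1 (5.34 ± 0.11). Endothelial genes above it were Cdh5 (7.79 ± 0.37), Kdr (7.29 ± 0.03), Emcn (8.02 ± 0.54) and Flt4 (8.10 ± 0.43). Of the endothelial genes, Emcn (1.70-fold) and Tek (1.69-fold as measured, and at least 1.45-fold with replicate 1 set to the limit it lay below) were higher on replicate 2, and Flt4 (1.53-fold) on replicate 1. At least 1.5-fold apart were 4.77% of the 13577 genes. Of 8 mast cell and progenitor markers, 3 passed the first limit, namely Kit, Cd34 (7.62 ± 0.11) and Gata2 (10.05 ± 0.10), a transcription factor gene active in other cell types too, and only Gata2 passed the second. The mast cell genes Fcer1a (4.93 ± 0.08), Cpa3 (5.31 ± 0.06), Tpsab1 (6.40 ± 0.10) and Mcpt4 (5.42 ± 0.02) were below the first limit. Gata1 (7.32 and 7.12) was above it on replicate 1 only. Beside these counts, 13 of 33 tissue-restricted genes (39.4%) also passed the first limit. In bulk RNA, few cells with a high level and many cells with a low level cannot be told apart. What part such cells had in the growth factor levels was not tested.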

How the data were processed

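The deposited values are linear intensities, 1 for each probe set on each array. The authors made them with RMA (robust multi-array average), according to the submitters' processing notes, where no version is named. The method corrects background, equalises the distributions of arrays by quantiles and combines probes into probe sets, so small signals are compressed and differences in how much RNA a cell holds are lost. Which arrays were normalised together, and the genome build, are not given in the sources used here. Per array, the lowest and highest intensity were 8.77 and 20232 on replicate 1, and 8.20 and 20996 on replicate 2. Precision is limited by the number of arrays, 2.

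From these, log2 intensities were computed in Python 3.11.15 with pandas 2.3.3. Only the 21354 probe sets with a single gene in the platform annotation, out of 24679, were used. Their gene identifiers matched the RefSeq table of GRCm38.p6 in 21277 cases, and no symbol changed. Where a gene had several probe sets, their log2 values were averaged.

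As all samples form 1 group, conditions could not be compared, and the text holds no significance test or p-value. Differences are replicate 1 minus replicate 2 over the 13577 genes with a mean level above the mean limit of 7.16. The members and the 13 lists were chosen with earlier results of these data known. The naming rule took the 7 growth factors and the receptor and shedding genes whatever their value. From each other list it took the genes above the olfactory receptor limit or the rest, whichever were fewer, if 5 or less (of equal numbers, those above), and some set by relevance (Il1a, Il1r1, Zfp36, Cxcl12, Il7, Il6, Ptprc, Pdpn). Other named genes, such as Tnfrsf1a, Il17ra, Il1rap, Lif, Itgam, Fcer1a, Tek, Nfkbiz and Zc3h12a, were chosen after their values were seen. So were Ccl19, Tyrobp, Gata1, Tpsab1 and the dendritic cell and lymphocyte genes above the limit. No genes of like pattern are named, since 2 arrays give no pattern to compare. The counting of fold differences was tested on simulated data with known folds, a check of the counting and not of the results. Noise in these simulated data was taken from the olfactory receptor probe sets. Alternatives were other limits, repeated quantile normalisation, removal of a loess trend (span 0.3), other probe set rules, floors, filters and folds, and each array left out.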

Additional observations from a re-analysis of the deposited data

How the results depend on the processing

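No paired analysis was possible because the series has 1 group. The number of growth factor genes above the limit was 5, and between 4 and 6 under 10 alternatives, with 5 when either array was left out. It was 6 with the 90th percentile of the olfactory receptors or with vomeronasal receptors as the limit, where Csf3 passed by 0.34 and 0.88, and 4 with the tissue-restricted limit, where the level of Flt3l minus the limit was -0.07 on replicate 2. The calls of Csf1, Il34, Kitl, Cx3cl1 and Csf2 were the same under all 10. The probe set rules could not change a call, as each growth factor gene had 1 probe set and no shared one. Leaving out an array could not either, as no growth factor gene was above the limit on 1 array only. The other limits and the repeated normalisation could have changed a call. Of the 106 measured genes in the other lists apart from the tissue-restricted one, 72 lay above the limit, against 46 with the 99th percentile and 42 with the tissue-restricted limit. Of the 19751 named genes, 13300 lay above the limit, 10314 with the 99th percentile and 9834 with the tissue-restricted limit. For single lists, 23 of the counts under alternatives differed by more than 1.5 times from the reported ones, all of them with a different limit, and 107 did not. For the receptors the count was 8, against 4 with the 99th percentile and 2 with the tissue-restricted limit. The count of growth factor genes 1.5-fold apart was 0 under all 8 alternatives, while that over all genes was 648, and 192 at 2-fold. Several alternatives could not raise the count of 0. They were the probe set rules, with 1 probe set per gene, the higher fold, the stricter filter and the floor at the limit. Differences of single growth factor genes were judged by the gene's own SD over the 2 arrays, which grows with the difference itself. The probe set rules left every difference unchanged by construction, as did the floor for genes above the limit. Of 35 differences of single growth factor genes under alternatives, 33 moved by less than 1 SD. The other 2, of Csf2 and Csf3, became -0.02 when both arrays were set to the limit, by construction the difference of the limits. Signal over background limits what can be said of Csf2 and Csf3.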
